A study of Mus musculus with 6 samples.

Results

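Vcam1 and 9 further genes for adhesion molecules of the immunoglobulin type were followed in sorted synovial fibroblasts of mice given immune complexes or vehicle. The genes were Vcam1, Icam1, Alcam, Mcam, Jam2, Jam3, F11r, Ncam1, Cadm1 and Cadm3, picked by symbol from a table of 24348 genes. All 10 were found and all 10 passed the count filter, a minimum of 10 counts in 3 or more libraries that 19925 genes met. The list was drawn up with the comparison of the 2 groups in these same libraries already known. Fold changes and adjusted p-values of the members therefore describe where each gene stood in the fit over the whole table, and are not independent evidence.

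Total RNA was sequenced from fibroblasts sorted from collagenase-digested synovium, the membrane that lines joints, of adult wild-type C57BL/6 mice. Of the 6 libraries, 3 came from mice injected intravenously with immune complexes (IC), which in this study were ovalbumin bound by rabbit antibody against ovalbumin, and 3 from mice given vehicle, whose treatment label reads Control. No genetic change or transgene was used, and both groups passed through the same digestion and sort. The time after injection, the sort markers, the number of mice per library and the composition of the vehicle are not given in the sources used here, so p-values measure the spread between these libraries, which may be technical.

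Adhesion molecules of the immunoglobulin type are cell surface proteins that carry immunoglobulin-like domains outside the cell and bind either integrins or one another. VCAM-1 and ICAM-1 are known as the integrin ligands that hold leukocytes on activated endothelium, and both are also carried by synovial fibroblasts, where inflammatory cytokines induce them. The junctional, neural and synaptic members join like cells to each other, and cells of the synovial lining are themselves held together by cell-to-cell adhesion.

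Total counts per library ranged from 40114331 to 56714304. The cell type label was checked against marker genes. General fibroblast markers (8 of 8 in the table) summed to 43890 to 54810 CPM (counts scaled to an equal library total), against 262.4 to 390.6 CPM for 13 endothelial markers, 32.41 to 50.99 CPM for 8 macrophage markers and 1.203 to 2.927 CPM for the 1 lymphocyte marker in the table. The 8 chondrocyte markers summed to 728.3 to 827.6 CPM after IC and 476 to 692.4 CPM after vehicle, without overlap. Of the 7 tested, 1 was called higher by DESeq2, against 1.03% of all tested genes, and their median log2 fold change was -0.002. Fibroblast markers thus made up far more of the RNA than markers of other cell types. Of the 8 macrophage markers, 5 passed the count filter, with Cd68 the highest, and C1qb, C1qc and Cx3cr1 did not. At an adjusted p under 0.05, 419 genes were called by DESeq2, or 2.10% of those tested, of which 205 were higher (1.03%) and 214 lower (1.07%) after IC. edgeR's quasi-likelihood test called 37 (0.186%). In 15.8% of tested genes the 3 IC libraries did not overlap the 3 vehicle libraries.

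Promoter sequence was available for 5 of the 10 members, from RefSeq on GRCm38.p6, as windows of 250 bases before to 50 bases after the start site. The windows were searched on both strands for 3 transcription factor motifs and the TATA box, all known from inducible promoters. The 3 windows with a match are printed 5′ to 3′ on the strand of the gene, with the matched letters in capitals. They lay at chr9:21015690-21015989 on the plus strand for Icam1, chr1:171437311-171437610 on the plus strand for F11r and chr1:173367646-173367945 on the minus strand for Cadm3.
Icam1: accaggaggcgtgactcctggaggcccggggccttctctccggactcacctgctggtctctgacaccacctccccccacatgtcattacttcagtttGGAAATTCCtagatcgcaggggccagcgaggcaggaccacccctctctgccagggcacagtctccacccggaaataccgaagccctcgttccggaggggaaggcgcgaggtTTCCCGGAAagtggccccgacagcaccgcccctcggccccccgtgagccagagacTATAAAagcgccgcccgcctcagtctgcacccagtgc
F11r: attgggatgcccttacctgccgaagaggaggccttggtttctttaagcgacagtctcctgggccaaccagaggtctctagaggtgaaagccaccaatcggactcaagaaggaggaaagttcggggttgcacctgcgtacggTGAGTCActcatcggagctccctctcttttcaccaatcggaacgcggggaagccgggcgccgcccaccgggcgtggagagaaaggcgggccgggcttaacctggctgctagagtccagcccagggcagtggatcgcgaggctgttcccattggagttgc
Cadm3: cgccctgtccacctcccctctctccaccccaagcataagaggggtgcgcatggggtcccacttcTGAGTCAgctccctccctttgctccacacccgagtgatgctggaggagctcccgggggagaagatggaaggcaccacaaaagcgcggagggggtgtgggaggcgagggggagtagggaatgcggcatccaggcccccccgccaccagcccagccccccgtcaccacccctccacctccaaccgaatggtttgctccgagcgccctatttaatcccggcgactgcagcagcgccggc
The Icam1 window held an NF-kB motif (letters searched GGANNTTCC) beginning 153 bases before the start site and a STAT motif (TTCNNNGAA) beginning 42 bases before it. TATA letters (TATAAA) began 14 bases after it. Positions count from the RefSeq start site of each window. The GENCODE M21 start of Icam1, chr9:21015985, lay inside the window and downstream of the TATA letters. F11r and Cadm3 each held an AP-1 motif (TGANTCA), at 109 and 186 bases before the start. The Alcam and Mcam windows held none of these letters. However, the GENCODE M21 start of Alcam, chr16:52454074, lay outside its window, and that of Mcam, chr9:44134469, upstream of the RefSeq start. No match overlapped another. Over 32851 promoter windows of the same length, 4.26% held the NF-kB letters, 7.81% the AP-1 letters, 8.30% the STAT letters and 13.6% the TATA letters. A match describes the letters only. Windows for Vcam1, Jam2, Jam3, Ncam1 and Cadm1 were not analysed here.

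To compare levels between genes, counts were divided by merged exon length and scaled to an equal total per library (TPM). Icam1 was the most abundant member at a mean of 742 TPM over the 6 libraries (629.7 to 904), above 99.4% of genes with a known length. Cadm3, a synaptic-type cell adhesion molecule, was second at 215 TPM (191.5 to 262). Vcam1 followed at 47.4 TPM (40.3 to 58.4), and Jam2 at 35.4 TPM (28.3 to 40.1). Icam1 and Cadm3 together made up most of the members' summed TPM, with shares of 65.5% and 19.0%.

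The lower levels lay closer together. Mean TPM was 27.9 for Ncam1 (20.2 to 40.8), 27.5 for Jam3 (25.1 to 33.2), 20.6 for F11r (15.8 to 26.7), 10.6 for Mcam (7.32 to 14.5), 3.73 for Alcam (1.98 to 6.25) and 3.46 for Cadm1 (2.16 to 4.19). Ranges over the 6 libraries overlapped between Jam2 and Ncam1, Ncam1 and Jam3, Jam3 and F11r, and Alcam and Cadm1. Compared within each library, Jam3 lay above F11r in all 6. The order within the other overlapping pairs differed between libraries and is not fixed by these data. No other neighbours in the order overlapped, although the ranges of Vcam1 and Jam2 were separated narrowly. The lowest Vcam1 value was 40.3, in IC replicate 2, and the highest Jam2 value 40.1, in vehicle replicate 3. Within each library Vcam1 lay above Jam2. With the longest annotated transcript in place of merged exons, the level of Vcam1 was 81.3 TPM, that of Icam1 1009 TPM, that of Jam3 35.9 TPM and that of Cadm1 6.0 TPM, which placed Jam3 above Ncam1 and Cadm1 above Alcam.

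**Figure D1:**
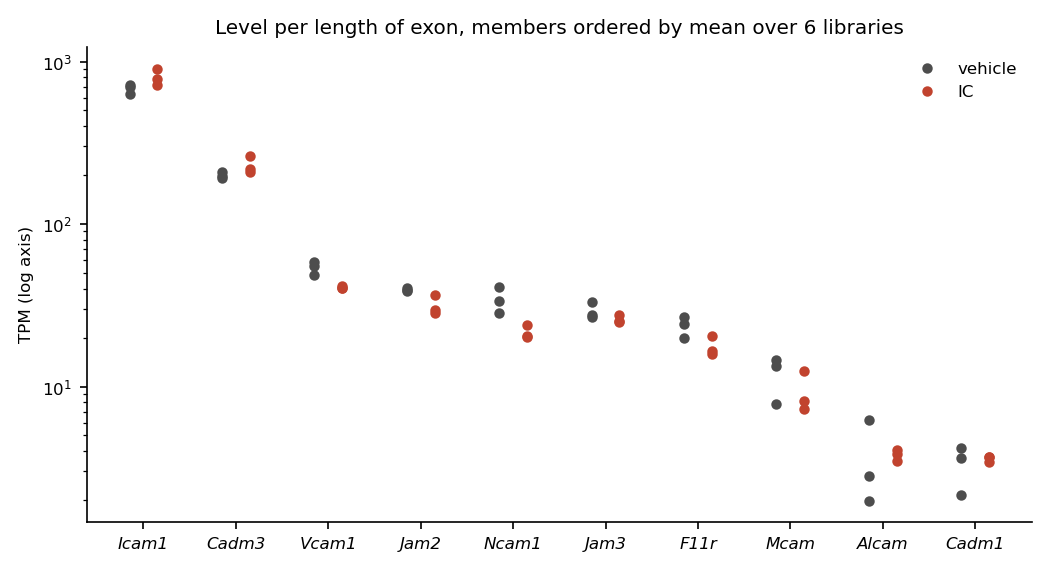
Level of each adhesion gene in TPM on a log axis, 1 point per library, with IC and vehicle libraries marked by colour and genes ordered by mean. Icam1 (742 TPM) and Cadm3 (215 TPM) stood apart above the rest, and Alcam and Cadm1 were lowest, at 3.73 and 3.46 TPM.

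The question of the comparison was whether the genes moved in fibroblasts after circulating immune complexes. Of the 10 members, 2 were called by DESeq2, Vcam1 and Ncam1, both lower after IC, against 2.10% of all tested genes called. edgeR and limma-voom each called none (5 at an unadjusted p under 0.05 by each, and 6 by DESeq2, against 9.80% of all tested genes by DESeq2). The log2 fold change was below 0 for 6 members, against 50.4% of all tested genes. In 4 members, Vcam1, Jam2, F11r and Ncam1, every IC library lay below every vehicle library, which held for 7.67% of tested genes, and in the other 6 members the groups overlapped. The median log2 fold change of the members was -0.27, beside -0.002 over all tested genes.

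**Figure D2:**
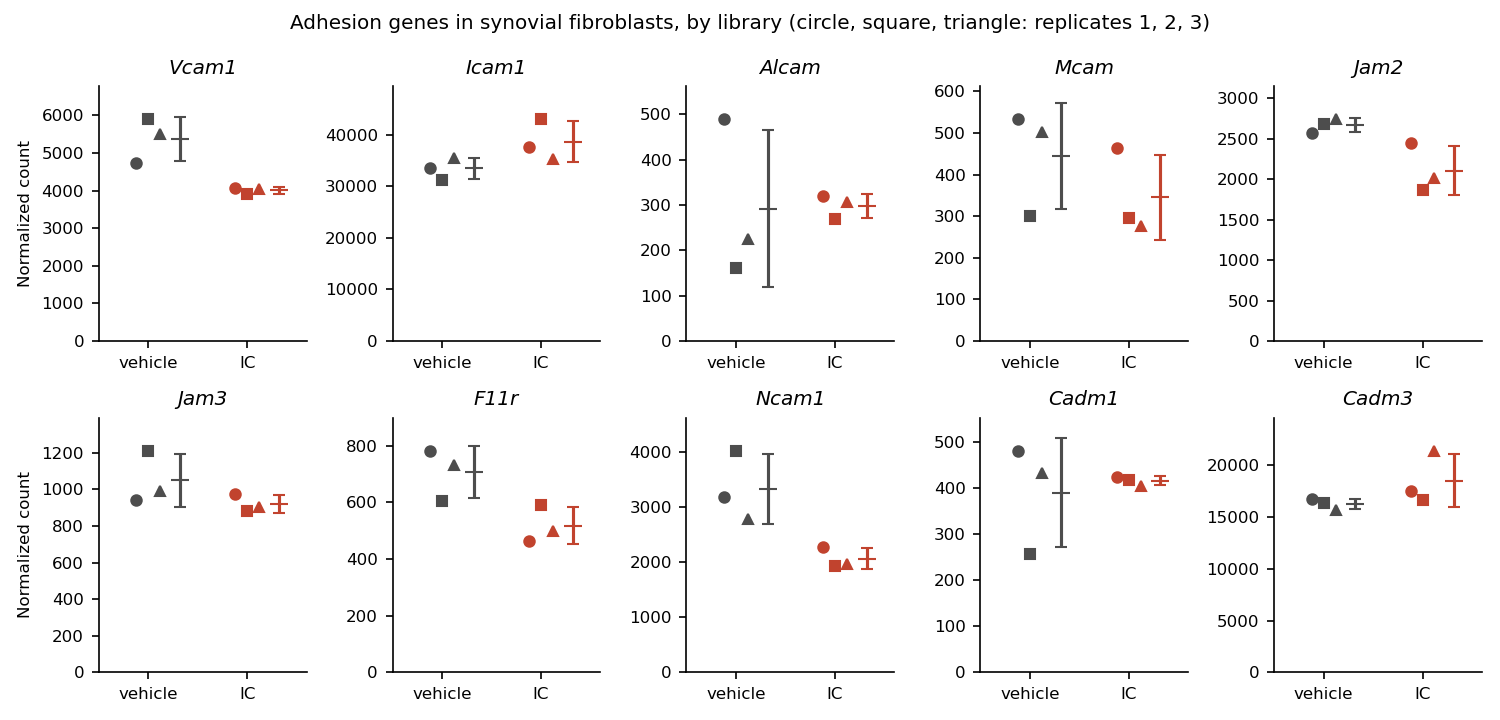
Normalized counts of the 10 adhesion genes, 1 panel per gene with its own axis, 1 symbol per library and the group mean with its SD beside them. The IC libraries lay wholly below the vehicle libraries for Vcam1, Jam2, F11r and Ncam1 and overlapped them in the other panels.

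Vcam1 encodes VCAM-1, the ligand of the integrin alpha4 beta1 on lymphocytes and monocytes (chr3:116109949-116129688 on GRCm38, minus strand). Normalized counts, which are counts divided by the DESeq2 size factor, were 4078, 3899 and 4046 in IC replicates 1, 2 and 3 and 4738, 5899.9 and 5499.5 in vehicle replicates 1, 2 and 3. The IC libraries sat within 1.05-fold of each other, and the lowest vehicle library was above all of them. The mean was 4008 ± 95.7 (SD, n = 3) after IC and 5379 ± 590.4 (SD, n = 3) after vehicle, so that it fell by 25.5%, with a log2 fold change of -0.42 ± 0.10 (SE; 95% interval -0.62 to -0.23; DESeq2 adjusted p = 0.00146). With edgeR the adjusted p was 0.0856 and with limma-voom 0.0720, so the call rested on the tool, while it held in all 6 DESeq2 fits that left out 1 library (adjusted p from 2.13e-07 to 0.0395).

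Icam1 encodes ICAM-1, the ligand of the leukocyte integrin LFA-1 (chr9:21015985-21028817, plus strand). It was measured at 37556, 42978 and 35261 normalized counts in the IC libraries and 33589.9, 31264 and 35479 in the vehicle libraries. IC replicate 3 fell just under vehicle replicate 3, so the groups overlapped. The mean was 38598 ± 3963 (SD, n = 3) with IC and 33444 ± 2111 (SD, n = 3) with vehicle. Its log2 fold change was 0.21 ± 0.09 (95% interval 0.03 to 0.38), and did not pass the test (DESeq2 adjusted p = 0.265, edgeR 0.499). An increase above 0.38 on the log2 scale lay outside the interval.

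The 2 leukocyte ligands therefore had fold changes of opposite sign. In raw counts of the same library, Icam1 exceeded Vcam1 by 9.21-, 11.02- and 8.72-fold in the IC libraries and by 7.09-, 5.30- and 6.45-fold in the vehicle libraries, without overlap. The ratio averaged 9.65 ± 1.22 (SD, n = 3) with IC and 6.28 ± 0.908 (SD, n = 3) with vehicle. It uses the same values that chose the list and is given as a description.

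Alcam encodes an adhesion molecule that binds CD6 on T cells and other ALCAM molecules (chr16:52248996-52454074, minus strand). Normalized counts were 319.6, 269 and 306 in the IC libraries and 489.5, 161 and 226 in the vehicle libraries. The vehicle libraries alone spanned 3.05-fold and enclosed all 3 IC libraries. The log2 fold change was 0.03 ± 0.33 (95% interval -0.62 to 0.68; DESeq2 adjusted p = 0.995), an interval too wide to place the gene.

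Among the integrin partners of these ligands, Itga4, the alpha4 chain bound by VCAM-1, had 28.3 to 66.3 normalized counts, Itgal, the alpha chain of LFA-1, 52.9 to 102 and Itgb2, its beta chain, 14.3 to 43.9, whereas Itgb1, the broadly expressed beta1 chain, had 15854 to 20204. Itgb7, another leukocyte chain that pairs with alpha4, had 219 to 449.6. None of these 5 genes was called by DESeq2 or limma-voom (1 at an unadjusted p under 0.05 by each, Itgb1) or by edgeR (0), and they were named after their values were seen.

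Jam2 encodes JAM-B, a junctional molecule of endothelium and fibroblasts that pairs with JAM-C (chr16:84774123-84825928, plus strand). Normalized counts were 2447, 1868 and 2009.97 in the IC libraries and 2575, 2687 and 2743 in the vehicle libraries. All vehicle libraries lay above all IC libraries, with IC replicate 1 the closest to them. The mean was 2108 ± 302 (SD, n = 3) with IC and 2668 ± 85.8 (SD, n = 3) with vehicle, with a log2 fold change of -0.34 ± 0.12 (95% interval -0.57 to -0.11) that did not pass the test (DESeq2 adjusted p = 0.0954, edgeR 0.260). Without IC replicate 1 the log2 fold change was -0.46 and passed (DESeq2 adjusted p = 0.00266). Jam2 was not called in any other DESeq2 fit that left out 1 library (adjusted p from 0.0851 to 0.464).

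Jam3, which encodes the partner JAM-C (chr9:27097384-27155421, minus strand), had 973, 879 and 904 normalized counts after IC and 942, 1210.01 and 992 after vehicle. Vehicle replicate 2 was the highest of the 6 libraries, and vehicle replicate 1 lay among the IC libraries. The log2 fold change was -0.19 ± 0.14 (95% interval -0.47 to 0.09; DESeq2 adjusted p = 0.715).

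F11r encodes JAM-A, a tight-junction molecule of epithelium, endothelium and leukocytes (chr1:171437535-171464603, plus strand). It had 465, 590.2 and 497 normalized counts after IC and 782, 606 and 733 after vehicle. The groups did not overlap, but IC replicate 2 and vehicle replicate 2 were close. The mean was 518 ± 65.0 (SD, n = 3) with IC and 707 ± 90.7 (SD, n = 3) with vehicle, and the log2 fold change of -0.45 ± 0.17 (95% interval -0.79 to -0.11) did not pass the test (DESeq2 adjusted p = 0.174, edgeR 0.323).

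Mcam encodes CD146, a molecule of endothelium and pericytes (chr9:44134469-44142727, plus strand). Normalized counts were 463, 297 and 276 after IC and 533, 299 and 503 after vehicle. Vehicle replicate 2 lay among the IC libraries, whose replicate 1 in turn lay near the higher vehicle libraries. Mcam had a log2 fold change of -0.37 ± 0.26 (95% interval -0.88 to 0.15; DESeq2 adjusted p = 0.696).

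Ncam1 encodes NCAM, a homophilic adhesion molecule of neurons, Schwann cells, muscle and mesenchymal cells (chr9:49502136-49798925, minus strand). Normalized counts were 2279, 1937 and 1975 in the IC libraries and 3177, 4021 and 2792 in the vehicle libraries. The lowest vehicle library was above the highest IC library, and vehicle replicate 2 was the highest of all. The mean was 2064 ± 187 (SD, n = 3) with IC and 3330.0 ± 629 (SD, n = 3) with vehicle, so that it fell by 38.1%, with a log2 fold change of -0.69 ± 0.13 (95% interval -0.95 to -0.43; DESeq2 adjusted p = 5.31e-05). The adjusted p was 0.0593 with edgeR and 0.0525 with limma-voom, and the DESeq2 call held without each of the 6 libraries in turn (adjusted p from 1.17e-05 to 0.00614).

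Cadm1, a synaptic and epithelial adhesion molecule (chr9:47530173-47857637, plus strand), had 423, 418 and 404 normalized counts after IC and 480.5, 257 and 432 after vehicle. The IC libraries were tightly grouped inside the vehicle range. At a log2 fold change of 0.09 ± 0.23 (95% interval -0.37 to 0.55), Cadm1 did not pass the test (DESeq2 adjusted p = 0.965).

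Cadm3, an adhesion molecule best known from neurons and Schwann cells (chr1:173333258-173367695, minus strand), had 17485.5, 16605 and 21391 normalized counts after IC and 16707, 16302 and 15702 after vehicle. IC replicate 3 was above the others, and IC replicate 2 lay below the highest vehicle library. The log2 fold change was 0.19 ± 0.10 (95% interval 0.001 to 0.37; DESeq2 adjusted p = 0.434), and without IC replicate 3 it was 0.07.

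**Figure D3:**
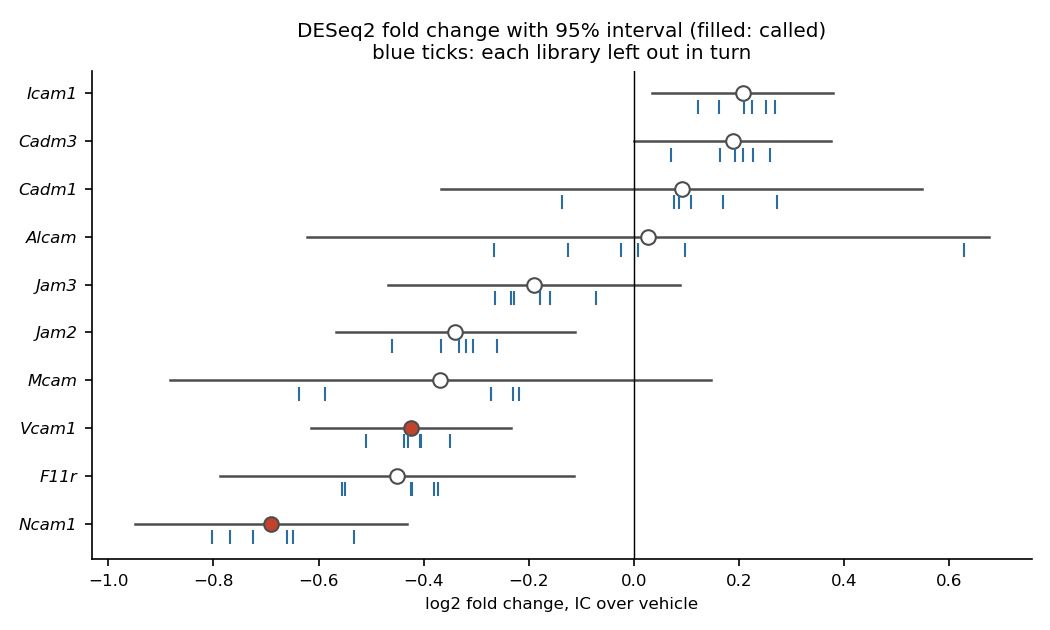
Log2 fold change of IC over vehicle for the 10 adhesion genes, with bars for the 95% interval, filled points for the genes called by DESeq2 and blue ticks for the value with each library left out in turn. Vcam1 (-0.42) and Ncam1 (-0.69) were called. Jam2 and F11r had intervals below 0 without a call, and Icam1 and Cadm3 intervals above 0 without a call. The intervals of Alcam, Mcam, Jam3 and Cadm1 crossed 0.

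Counting could be affected by overlapping genes, since the use of strand is not given in the sources used here. Exons shared with another gene were 361 bases for Cadm3 with Ackr1, on the same strand and with a mean of 1714 normalized counts, and 1159 bases for Jam3 with the antisense Gm48796, at 81.4. Antisense neighbours shared 511 bases with Icam1, 417 with Ncam1, 61 with Vcam1 and 17 with Mcam, at means of 20.5, 0.642, 0.671 and 21.6 normalized counts, each well below the member.

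Marker lists of other cell types are given beside the lower members. They too were chosen with earlier results of these data known. Their calls stand beside 1.07% of all tested genes called lower by DESeq2. The 9 muscle satellite cell markers summed to 232.2 to 267.5 CPM after IC and 287.3 to 391.4 CPM after vehicle, with vehicle replicate 2 the highest, and their median log2 fold change was -1.62. In 7 of the 9 every IC library lay below every vehicle library, against 7.67% of all tested genes, and 2 were called lower by DESeq2 (8 at an unadjusted p under 0.05). Chodl, a satellite cell surface lectin, was lower at a log2 fold change of -0.57 (DESeq2 adjusted p = 0.00129) and held in all 6 fits that left out a library. Myf5, a myogenic factor, was lower at a log2 fold change of -2.08 (DESeq2 adjusted p = 0.000122), although not without IC replicate 2 (adjusted p = 0.292) or without vehicle replicate 2 (adjusted p = 0.346). The 13 endothelial markers summed to 262.4 to 341.3 CPM after IC and 333.8 to 390.6 CPM after vehicle, with a median log2 fold change of -0.55, and 3 of them were called lower, Kdr, Cdh5 and Cldn5. Kdr held in all 6 fits that left out a library, and Cdh5 and Cldn5 in 1 each. By edgeR none of the satellite cell or endothelial markers was called (8 and 6 at an unadjusted p under 0.05). By limma-voom 1 of each list was called (8 and 8 at an unadjusted p under 0.05).

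The 11 Schwann cell markers summed to 332.9 to 422 CPM after IC and 392.2 to 430.0 CPM after vehicle, with only Ngfr called lower (log2 fold change -1.82, DESeq2 adjusted p = 0.0025). Their median log2 fold change was -0.02, and their sums overlapped between groups, as did those of the endothelial list. The endothelial sums include Ackr1, which shares exon bases with Cadm3 and had mean normalized counts of 1914 with IC and 1514 with vehicle. Pericyte and smooth muscle markers summed to 500.0 to 617.7 CPM after IC and 617.4 to 672.6 CPM after vehicle, also with overlap, at a median log2 fold change of -0.46. Of the 10 tested, 1 was called lower, Myh11, which held in 1 of the 6 fits that left out a library. Muscle fibre markers summed to 14.73 to 28.78 CPM after IC and 24.9 to 60.27 CPM after vehicle, with overlap, and their median log2 fold change was -1.95. All 9 tested were below 0, 7 had an unadjusted p under 0.05, and 2 were called lower by DESeq2, Myh1 and Actn3. Myh1 was not called without vehicle replicate 1 or vehicle replicate 2, nor Actn3 without vehicle replicate 2. Neither edgeR nor limma-voom called any pericyte or muscle fibre marker. At an unadjusted p under 0.05 edgeR gave 4 pericyte and 7 muscle fibre markers, and limma-voom 5 and 3. Satellite cells, endothelium and Schwann cells are known to express Vcam1 or Ncam1 as well, and their part in the lower values was not tested. In bulk RNA, fewer cells of a type and less RNA per cell cannot be told apart.

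Markers of the fibroblast layers were checked in the same way, beside 2.10% of all tested genes called by DESeq2. The 8 lining markers summed to 1797 to 1955 CPM after IC and 1419 to 1469 CPM after vehicle, with Has1 and Prg4 called higher, Clic5 and Tspan15 called lower and the other 4 not called, at a median log2 fold change of 0.04. Prg4 lost its call when IC replicate 2, IC replicate 3 or vehicle replicate 3 was left out (adjusted p from 0.129 to 0.155), and Tspan15 was called in only 2 of the 6 fits that left out a library. Of the 8 lining markers, edgeR called 1 and limma-voom 2 (6 at an unadjusted p under 0.05 by each). None of the 10 sublining markers was called by DESeq2 (6 at an unadjusted p under 0.05), edgeR (5) or limma-voom (5), and their sums overlapped at 6124 to 7306 and 6521 to 7083 CPM. Among general fibroblast markers, Lum and Col3a1 were called lower, Lum not without vehicle replicate 3 and Col3a1 in only 2 of the 6 fits that left out a library. None of the general markers was called by edgeR (3 at an unadjusted p under 0.05) or limma-voom (4). The part of the layers in the members' values was not tested.

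The genes whose pattern over the 6 libraries was most like that of Vcam1 were found by the root mean square difference of log2 normalized counts, each centred on its own mean, over 13431 genes with a mean of at least 100. They were Mpst (0.0268), Nol3 (0.0292), Apoe (0.0315), Ntrk2 (0.0417) and Bcap29 (0.0419). Apoe, which encodes a lipid transport protein, was called by DESeq2 at a log2 fold change of -0.42 (adjusted p = 0.000501, edgeR 0.0836). Ntrk2 was also called, at -0.39 (DESeq2 adjusted p = 0.0076, edgeR 0.167), but in only 2 of the 6 fits that left out a library. Mpst, Nol3 and Bcap29 were not called. Among the members the nearest to Vcam1 were Jam2 (0.130, rank 368), Jam3 (0.134, rank 424) and Ncam1 (0.199, rank 2335), and Alcam was farthest (0.647). This likeness includes the difference between groups that the choice of Vcam1 already used.

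Of 45 other immunoglobulin-type adhesion genes, 39 were tested, and 2 were called by DESeq2 (against 2.10% of all tested genes), both lower. They were Lsamp and Negr1, which encode glycolipid-anchored adhesion molecules of neurons in the IgLON family. Lsamp had 3300.3, 3499.8 and 3368 normalized counts after IC and 4861, 5002 and 5479 after vehicle, so the groups did not overlap. Its log2 fold change was -0.59 ± 0.09 (DESeq2 adjusted p = 9.98e-09, edgeR 0.0167). Negr1 was at -0.55 ± 0.14 (DESeq2 adjusted p = 0.0039, edgeR 0.0887) and was not called without IC replicate 2 (adjusted p = 0.0532). The list's median log2 fold change was -0.06, with 26 genes below 0. The count was 4 without IC replicate 1 or without vehicle replicate 1, and 1 without IC replicate 2.

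Counter-receptors and ligands of the members numbered 23 tested genes, of which 1 was called, against 2.10% of all tested genes. Lgals3, encoding the lectin galectin-3, was higher at 0.59 ± 0.15 on the log2 scale (DESeq2 adjusted p = 0.00789, edgeR 0.176). It was not called without IC replicate 3, vehicle replicate 1 or vehicle replicate 3 (adjusted p from 0.0514 to 0.195). The list's median was 0.03. The count was 0 without IC replicate 3 or vehicle replicate 3 and 2 without vehicle replicate 2 (DESeq2; 5 at an unadjusted p under 0.05 with all libraries).

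Selectins and cadherins, the other adhesion families of vessels and epithelia, gave 1 call among 14 tested genes, against 2.10% of all tested genes called. Cdh5, the endothelial junction cadherin, was at -0.74 ± 0.23 on the log2 scale (DESeq2 adjusted p = 0.0496, edgeR 0.319) and was called in 1 of the 6 fits that left out a library. The list's median was -0.18, and its count was 0 without IC replicate 2 or vehicle replicate 3 and 2 without IC replicate 3 or vehicle replicate 1.

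Surface adhesion molecules are released by sheddases, the metalloproteinases that cut their outer domains. Of 13 tested genes for sheddases and their regulators, 3 were called, against 2.10% of all tested genes. Timp1, an inhibitor of such enzymes, was higher, with 915, 1135 and 1172 normalized counts after IC and 671, 429 and 646 after vehicle, without overlap. Its log2 fold change was 0.89 ± 0.18 (DESeq2 adjusted p = 0.000272, edgeR 0.0836). Rhbdf1, a regulator of ADAM17 trafficking, was higher at 0.27 ± 0.08 (DESeq2 adjusted p = 0.0415) and Adam10, a sheddase of several members, lower at -0.29 ± 0.08 (DESeq2 adjusted p = 0.0266). Rhbdf1 was called in 1 and Adam10 in 3 of the 6 fits that left out a library, and the list's count was 1 without IC replicate 2. Its median log2 fold change was -0.05, and Adam17, the other main sheddase, was at -0.10 ± 0.09 (DESeq2 adjusted p = 0.779), named after its values were seen.

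Of 25 tested cytokine-induced target genes of NF-kB, the transcription factor known to drive Vcam1 and Icam1, 6 were called, all higher. The activity of NF-kB itself was not measured. Over all tested genes, 1.03% were called higher. Ier3, Tnfaip2, Cxcl1, Ptgs2, Il6 and Nfkb2 had log2 fold changes of 0.44, 0.36, 0.45, 0.36, 0.55 and 0.31. Cxcl1, a neutrophil chemokine, had 32893, 33559.7 and 42865 normalized counts after IC and 26581, 26133 and 27442 after vehicle, without overlap (DESeq2 adjusted p = 0.000664, edgeR 0.107). Il6 was not called without IC replicate 3, vehicle replicate 2 or vehicle replicate 3, and Nfkb2 was called in 2 of the 6 fits that left out a library.

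The list's median log2 fold change was 0.28, and in 17 of its 25 genes every IC library lay above every vehicle library, against 8.09% of all tested genes. edgeR called none of the list (15 at an unadjusted p under 0.05) and limma-voom none (15), and DESeq2 called 10 when IC replicate 1 was left out and 4 when vehicle replicate 2 or vehicle replicate 3 was. Like the members, this list was chosen with earlier results of these data known, so its counts are a description and not independent evidence. Vcam1 at -0.42 and Icam1 at 0.21 stood on opposite sides of 0 while the list's median was above 0.

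Among 13 receptors for cytokines that induce Vcam1, 1 was called, against 2.10% of all tested genes. Il4ra, the receptor chain shared by IL-4 and IL-13, had 25895, 20699.8 and 24246 normalized counts after IC and 35133, 40229.9 and 36741 after vehicle. The groups did not overlap, and the log2 fold change was -0.66 ± 0.09 (DESeq2 adjusted p = 9.40e-10, edgeR 0.0227). The list's median was 0.01, and the count was 2 without vehicle replicate 1.

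**Figure D4:**
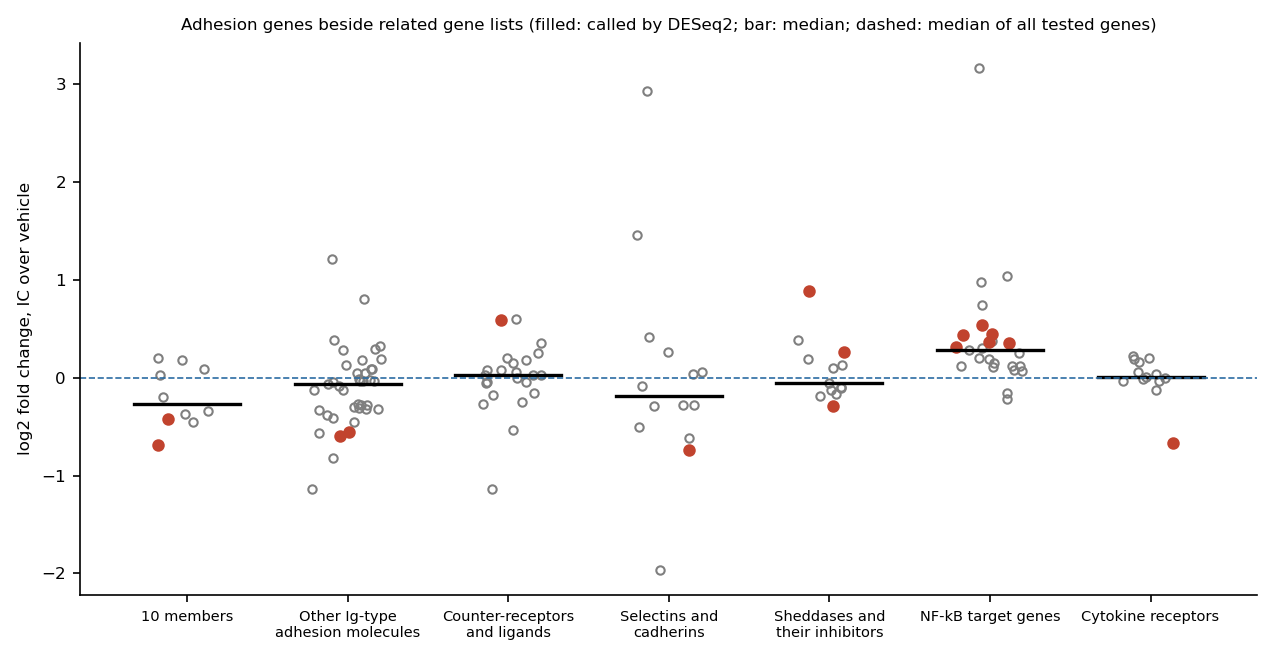
Log2 fold change of IC over vehicle for each tested gene of the 10 members and the other gene lists, 1 point per gene, with genes called by DESeq2 filled, the list median as a bar and the median of all tested genes as a dashed line. The NF-kB targets had a median of 0.28 with 6 genes called higher, and the members had a median of -0.27 with 2 called lower.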

How the data were processed

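Sorted synovial fibroblasts were profiled by total RNA sequencing in 3 IC and 3 vehicle libraries, grouped by sample title. The deposited values are raw read counts per gene, which the authors made, per the submitters' processing notes, with Trim Galore, FastQC, HISAT2 on mm10 and featureCounts. Versions, annotation and strand setting are not given in the sources used here. Different library kits are named in the labels and in the study's methods, which could affect strand and low genes.

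Counts were tested with the DESeq2 Wald test (version 1.42.0, R 4.3.3), which the study's methods name, with treatment as the only term, on 19925 genes that reached 10 counts in 3 or more libraries. Calls required a p under 0.05 after Benjamini-Hochberg adjustment, and 3870 genes received no adjusted p. Fold changes are unshrunken, and normalized counts are counts divided by size factors. The study also names sva, with no stated number of variables, so 1 surrogate variable (sva 3.50.0) was an alternative. Other alternatives were edgeR 4.0.16, limma-voom (limma 3.58.1), other scalings and filters, the replicate number as a block and each library left out. Leaving libraries out for the list counts was added after seeing the data. The steps were tested on simulated counts. Total counts of 40114331 to 56714304 per library leave the spread between libraries as the limit on precision for genes at these levels.

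TPM used merged exon lengths from GENCODE M21 (GRCm38), matched by symbol for 23857 of 24348 genes (98.0%). Promoters came from RefSeq.

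The members and the gene lists were chosen with earlier results of these data known. Named genes were the 10 members, called genes of each related list (up to 6 by adjusted p, otherwise the most abundant gene), up to 3 most abundant genes of each marker list, and the 5 genes most like Vcam1. Other genes, including every marker gene named for its change, were chosen after their values were seen. No 2 libraries of the same group agreed within counting noise.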

Additional observations from a re-analysis of the deposited data

How the results depend on the processing

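The count of genes called, 419 with DESeq2, was 37 with edgeR, 62 with limma-voom and 22 with edgeR and the replicate number as a block. It ranged from 281 (without vehicle replicate 2) to 677 (without vehicle replicate 1) when 1 library was left out. TMM or total-count scaling, no filter, a mean of at least 100, independent filtering off, the block in DESeq2 (320) and 1 surrogate variable (334) kept it within 1.5 times. The count of members called, 2, was 0 with edgeR, with limma-voom and with edgeR and the block, and 2 to 3 with 1 library left out, the third being Jam2. Under the block the adjusted p of edgeR was 0.209 for Vcam1 and 0.121 for Ncam1. Same-numbered libraries did not deviate together (correlations of -0.092, -0.164 and 0.025 over 13435 genes, and 0 of 6 libraries correlated best with their own number). No effect shared by number was thus visible, which cannot settle whether the libraries were paired.

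Alcam changed sign to -0.21 with 1 surrogate variable, -0.0255 without IC replicate 1, -0.27 without vehicle replicate 2 and -0.12 without vehicle replicate 3, and reached 0.63 without vehicle replicate 1. Cadm1 changed sign to -0.10 with 1 surrogate variable and -0.14 without vehicle replicate 2, and reached 0.27 without vehicle replicate 1. The cause was not tested, and neither gene was called in any of these fits. Among the alternative log2 fold changes of members, 147 kept their direction and side of the threshold, 6 lost a call, 1 gained one and 6 changed sign. With 3 libraries per group, the 95% intervals of Alcam, Mcam and Jam3 hold both 0 and a decrease of the size seen in Vcam1.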

Other observations

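Lsamp and Negr1 belong to the IgLON family, whose members bind each other on neuronal and mesenchymal surfaces, and the other 2 IgLON genes on the list were looked at after their values were seen. Opcml had 3439, 2767 and 3517 normalized counts after IC and 4091, 4075 and 3783 after vehicle, with a log2 fold change of -0.30 ± 0.11 (DESeq2 adjusted p = 0.130). Ntm had 107, 64.1 and 65.4 normalized counts after IC and 133, 171 and 113 after vehicle, with a log2 fold change of -0.82 ± 0.37 (DESeq2 adjusted p = 0.314). Neither passed the test, and the pair was picked after the fact, so these are values only.

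The endothelial selectins varied widely within a group. Sele had 106, 278 and 35.8 normalized counts after IC and 20.5, 109 and 23.1 after vehicle. Selp had 74.9, 225 and 0 after IC and 7.38, 19.8 and 12.2 after vehicle. IC replicate 2 was the highest for both genes, and the groups overlapped. Of 6 neutrophil markers, S100a8 was the only 1 in the table. It had 6.61, 12.4 and 5.38 normalized counts after IC and 0 in each vehicle library, and it was below the count filter.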
